A study of Drosophila melanogaster with 22 samples.

Results

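Transcripts of the genes that copy DNA and divide cells were followed through Drosophila melanogaster development. A list of 42 symbols was looked up by exact gene name in the authors' transcript tables, and 41 were found, out of 13934 gene entries in each table and 13686 with a name used once. They were kept in classes by role, with 13 genes of DNA replication, 6 of the G1/S transition, 19 of mitosis and 3 inhibitors of cell cycle entry (dap, E2f2 and Rbf). The symbol not found was fzr, the activator of the anaphase-promoting complex at cell cycle exit. Its RefSeq synonym rap was found and is given separately.

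Each chromosome is copied once per cycle because the origin recognition complex and the Dup (Cdt1) protein load the MCM helicase only in G1, and because cyclin E with its kinase then starts replication. Mitosis is driven by cyclins A, B and B3 with the kinase encoded by cdc2, which String and Twine, the Cdc25 phosphatases, switch on, and ends when Fizzy directs destruction of the cyclins. Fly embryos begin with rapid divisions fed by maternal RNA, arrest most epidermal cells after a few zygotic divisions, and the arrest needs the cyclin E inhibitor Dacapo, while imaginal discs proliferate through larval life and stop dividing in the pupa.

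The series paired open chromatin profiles with RNA-seq, and only the RNA was used here, as 9 tissues or stages in 3 tables of 3. Whole embryos of the OregonR strain were taken at 2–4, 6–8 and 16–18 h after egg laying. Leg, haltere and wing imaginal discs came from the larval instar 3, and legs of thoracic segment 3, halteres and wings came from pharate adults, enclosed and nearly ready to emerge, at stage P14. Discs and pharate appendages were of the strain y;cn,bw,sp, the labels name no treatment, and messenger RNA was selected with oligo(dT). Each title named 2 replicates, but 1 FPKM value (fragments per kilobase of transcript, scaled for sequencing depth) per gene and tissue was deposited, so no spread between replicates is known, no test could be made and every difference below is between single values. In whole tissue, fewer cells of a type and less RNA per cell cannot be told apart. Values were compared within a table as log2((FPKM + 1)/(FPKM + 1)) for genes at 5 FPKM or more in either tissue, and a gene was counted as higher or lower from a ratio of 2-fold.

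Depth in reads was not known, and between 8284 and 10568 genes per column were above 0. Genes that define the tissues matched the labels: Ubx, the Hox gene of haltere and hind leg, was listed at 319, 331.5 and 6.06 FPKM in leg, haltere and wing discs and at 58.97, 410.3 and 0 FPKM in the pharate appendages, and the wing selector vg at 2.76, 110.1 and 314 FPKM. The summed level of 8 maternal and germline markers was 1911, 569 and 712 FPKM at 2–4, 6–8 and 16–18 h, and that of 4 early patterning genes was 2762, 235 and 40.9 FPKM. Of the 8 maternal and germline markers, gcl alone was at 436, 229 and 583 FPKM. From 6–8 to 16–18 h, 1 of the 8 (gcl) was at least 2-fold higher and 4 were lower. The haltere disc column, and less so the leg disc column, stood above the wing disc column in genes of some other larval tissues, with 13 muscle markers summing to 27785, 90927 and 9526 FPKM in leg, haltere and wing discs, 7 fat body markers to 4276, 15274 and 1196 FPKM and 6 salivary gland markers to 7879.9, 27899 and 2418 FPKM. Markers of neurons, glia and trachea did not follow. Their median log2 ratios of haltere to wing disc were -0.03, 0.02 and -0.79, over 2, 3 and 3 genes tested. A listed 0 can be a failed estimate: tacc, a spindle gene, was at 466 and 416 FPKM in leg and haltere discs but at 0 in the wing disc. Of 39 members found in the RefSeq Release 6 annotation, 19 overlap another gene (among them fzy with cact, twe with EndoGI, dup with SRPK, Orc2 with rdx and Dp with Fsn), and whether counting used strand is not given in the sources used here, so their values may include reads of the neighbour.

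**Figure D1:**
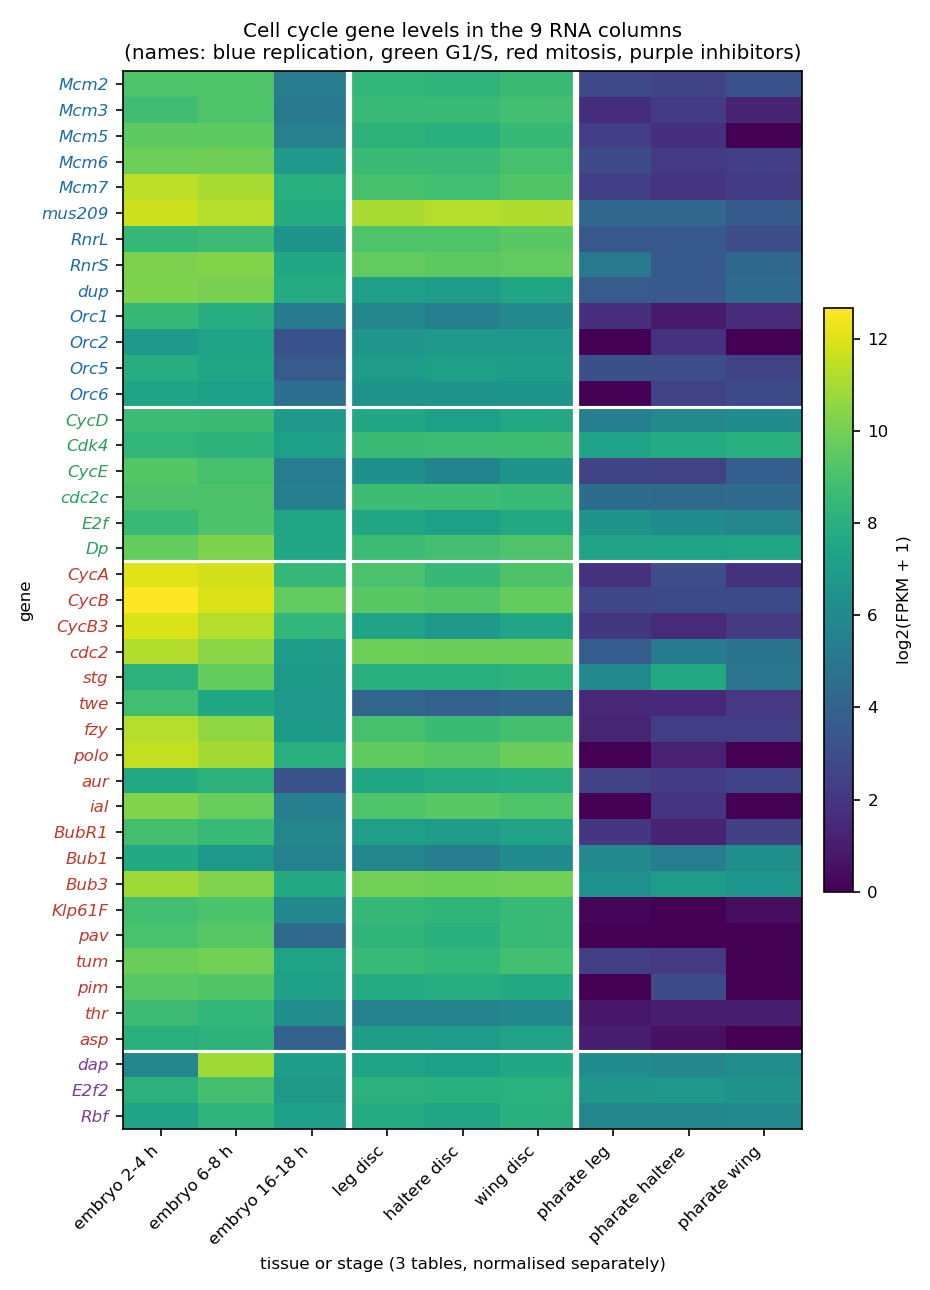
Level of each of the 41 genes (rows, grouped by class, name colour giving the class) in the 9 tissues or stages (columns), as log2(FPKM + 1) in colour; white vertical lines part the 3 tables, which were scaled separately. Most replication, G1/S and mitosis genes are high at 2–4 and 6–8 h and in the 3 discs. The inhibitor dap is the lowest member at 2–4 h, at 56.9 FPKM. Most replication and mitosis genes are near 0 in the pharate columns while Cdk4, Dp, E2f2, E2f, Bub3, Bub1, CycD, dap and Rbf keep colour. So does stg, unevenly, at 66.3 FPKM in pharate leg, 207 in haltere and 30.2 in wing.

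Replication genes stood at similar levels at 2–4 and 6–8 h and far lower at 16–18 h. Their median level was 586, 575 and 44.1 FPKM. Mcm7, a subunit of the replicative helicase, was listed at 2738 FPKM at 2–4 h, 2093 at 6–8 h and 249.8 at 16–18 h. Mcm2, another subunit, was listed at 586 FPKM at 2–4 h, 568 at 6–8 h and 38.3 at 16–18 h. In both genes the early columns lay close together, and 6–8 h was 8.35-fold and 14.5-fold above 16–18 h. For mus209, which encodes the sliding clamp PCNA, the levels were 3315 FPKM at 2–4 h, 2447 at 6–8 h and 226 at 16–18 h. For RnrS, the small subunit of the enzyme that makes deoxynucleotides, they were 1127 FPKM at 2–4 h, 1264 at 6–8 h and 191 at 16–18 h. Orc2, a subunit of the origin recognition complex, was lowest of all members at 16–18 h, with 110.1 FPKM at 2–4 h, 156 at 6–8 h and 8.103 at 16–18 h. These 3 genes repeated the drop at very different levels. The remaining MCM genes Mcm3, Mcm5 and Mcm6 had late to middle log2 ratios of -4.06, -4.05 and -3.07. Orc1, Orc5 and Orc6, of the origin complex, had ratios of -2.69, -3.82 and -2.53. The helicase loader dup was listed at 1168 FPKM at 2–4 h, 1063 at 6–8 h and 219.8 at 16–18 h, and RnrL, the large subunit beside RnrS, at 343 FPKM at 2–4 h, 412 at 6–8 h and 91.4 at 16–18 h, the smallest late difference of the class. Each of the 13 replication genes was lowest at 16–18 h, and their log2 ratios of 16–18 h to 6–8 h ran from -4.11 to -2.16.

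Counting all classes, 0 of 41 members were at least 2-fold higher at 16–18 h than at 6–8 h and 40 were lower, where 34.7% of all genes tested were higher and 31.1% lower. The members' median log2 ratio was -2.87 against -0.14 for all genes. Genes at 5 FPKM or more at both stages had a median ratio of -0.56, and relative to that shift the members' median was -2.30. The class medians were -3.07 for replication, -2.87 for mitosis, -2.18 for G1/S and -2.16 for the inhibitors. The member not counted as lower was twe, the Cdc25 phosphatase best known from meiosis, at -0.84. Against 2–4 h, 39 members were lower and 1, dap, was higher, where 33.5% and 41.2% of all genes were; this comparison shares the 16–18 h column with the first and is not a separate observation. At 2–4, 6–8 and 16–18 h, 13 muscle markers summed to 369, 2111 and 113801 FPKM, 9 neuron markers to 264, 623 and 1279.9 FPKM and 5 glia markers to 272, 1591 and 1351 FPKM. From 6–8 to 16–18 h, 11 of 13 muscle markers tested were at least 2-fold higher and 2 lower (Mhc and up, both listed at 0 late), 5 of 7 neuron markers were higher and 1 (elav) lower, and 1 of 5 glia markers was higher and 0 lower; their part in the members' lower share of RNA was not tested.

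Among the members, mitotic genes held ranks 1 to 3 at 2–4 h, and the replication gene mus209 was at rank 4. CycB, which encodes cyclin B, topped the members at all 3 stages, with 6469.6 FPKM at 2–4 h, 4117 at 6–8 h and 780.1 at 16–18 h. CycA, encoding cyclin A, was listed at 4217 FPKM at 2–4 h, 3544 at 6–8 h and 347 at 16–18 h. CycB3, encoding the cyclin that acts at anaphase, was listed at 3927 FPKM at 2–4 h, 2426 at 6–8 h and 331.7 at 16–18 h. The 3 cyclins were thus ordered alike at all stages, and CycA and CycB3 were close to each other at 16–18 h. Their kinase, cdc2, was listed at 2374 FPKM at 2–4 h, 1385 at 6–8 h and 124 at 16–18 h, and fzy, which triggers cyclin destruction, at 2477 FPKM at 2–4 h, 1483 at 6–8 h and 117 at 16–18 h. The mitotic kinase gene polo was listed at 2878 FPKM at 2–4 h, 1969.9 at 6–8 h and 251 at 16–18 h. The kinesin gene pav, needed for cytokinesis, had the lowest late to middle ratio of the members, with 526 FPKM at 2–4 h, 655 at 6–8 h and 19.8 at 16–18 h and a log2 ratio of -4.98. Next came aur, the centrosomal Aurora A kinase, with 202 FPKM at 2–4 h, 277 at 6–8 h and 8.36 at 16–18 h. Both were thus at their highest at 6–8 h before the late low. The Aurora B gene ial was listed at 1245 FPKM at 2–4 h, 834 at 6–8 h and 41.2 at 16–18 h and the spindle pole gene asp at 263 FPKM at 2–4 h, 292 at 6–8 h and 15.1 at 16–18 h, with late to middle log2 ratios of -4.31 and -4.18. Ratios nearer the class median belonged to Klp61F, the kinesin that pushes spindle poles apart, at -3.16, to BubR1 at -2.71, to tum, the partner of pav, at -2.68 and to Bub3 at -2.53. The separase complex gene thr and the securin gene pim, whose products control the release of sister chromatids, had smaller ones at -2.12 and -1.94. At the other end, Bub1, a spindle checkpoint kinase, was listed at 214 FPKM at 2–4 h, 107 at 6–8 h and 47.3 at 16–18 h, the smallest late decline in mitosis after twe.

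Between 2–4 and 6–8 h most members differed little: 2 of 41 were at least 2-fold higher and 1 was lower, against 25.9% higher and 18.9% lower among all genes. The median log2 ratio of the members was -0.12, and that of all genes at 5 FPKM or more at both stages was -0.20. Dacapo, the inhibitor of cyclin E with its kinase, is encoded by dap, which was listed at 56.9 FPKM at 2–4 h, 1872 at 6–8 h and 135 at 16–18 h, a 32.3-fold difference between the first and second stages. String, whose transcription times the zygotic divisions, is encoded by stg, which was listed at 277 FPKM at 2–4 h, 821 at 6–8 h and 119 at 16–18 h. Its relative twe went the other way, with 458 FPKM at 2–4 h, 189 at 6–8 h and 105 at 16–18 h. Bub1 lay just short of the 2-fold line, with 106.8 FPKM at 6–8 h and 214 at 2–4 h. The ratio of stg to twe FPKM was 0.604, 4.34 and 1.14 at the 3 stages, and that of dap to CycE was 0.089, 3.73 and 3.32. Over the same interval 7 of 8 maternal and germline markers were at least 2-fold lower; their part in the members' ratios was not tested.

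The highest level was at 2–4 h for 23 members (56.1%; 34.8% of all genes) and at 6–8 h for 18 (43.9%; 24.1% of all genes). In mitosis the split was 13 against 6, in replication 7 against 6 and in G1/S 3 against 3, and all 3 inhibitors were highest at 6–8 h. E2f2, the repressive E2F factor, was listed at 283 FPKM at 2–4 h, 492 at 6–8 h and 109 at 16–18 h. Rbf, the retinoblastoma-family repressor of E2F, was listed at 164 FPKM at 2–4 h, 298 at 6–8 h and 139 at 16–18 h. They shared with dap the highest level at 6–8 h, but were lowest at 16–18 h, where dap was lowest at 2–4 h. The synonym-matched rap was also highest at the middle stage, with 189 FPKM at 2–4 h, 529 at 6–8 h and 93.2 at 16–18 h. In G1/S, CycE, the S phase cyclin, was listed at 638 FPKM at 2–4 h, 502 at 6–8 h and 40.5 at 16–18 h. Its kinase, cdc2c, was listed at 549 FPKM at 2–4 h, 564 at 6–8 h and 43.9 at 16–18 h. Between the later stages the log2 ratios of both were near those of the replication genes, at -3.60 and -3.65. Cdk4, the partner of cyclin D, differed less late in embryogenesis, with 316 FPKM at 2–4 h, 290.04 at 6–8 h and 139 at 16–18 h. E2f, the activating E2F factor, and its partner Dp were both highest at 6–8 h, E2f with 379 FPKM at 2–4 h, 556 at 6–8 h and 176 at 16–18 h. For Dp the levels were 821 FPKM at 2–4 h, 1176 at 6–8 h and 195 at 16–18 h. Cyclin D, encoded by CycD, was listed at 414 FPKM at 2–4 h, 390.5 at 6–8 h and 114 at 16–18 h. At 16–18 h these last 4 genes stood at 114 to 195 FPKM, above CycE and cdc2c at 40.5 and 43.9 FPKM.

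**Figure D2:**
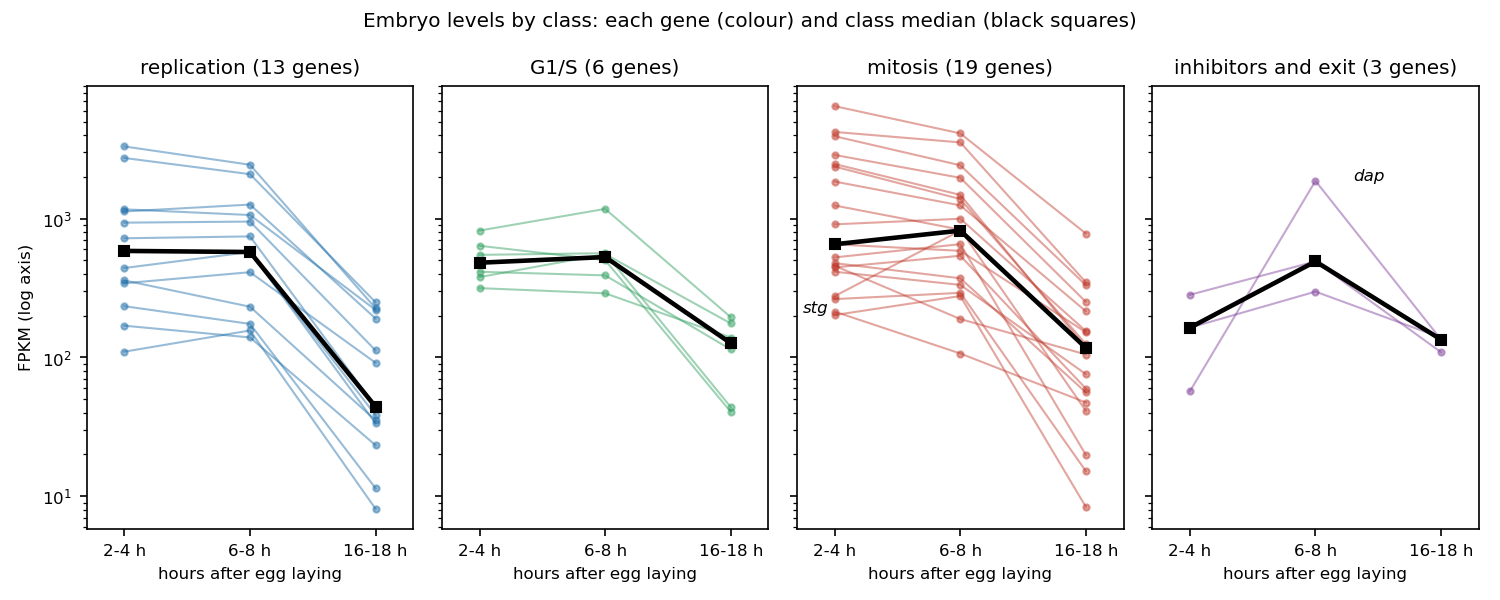
FPKM on a log axis at 2–4, 6–8 and 16–18 h after egg laying, in a panel per class; coloured lines are single genes and black squares the class median, each point being 1 deposited value. The replication median runs 586, 575 and 44.1 FPKM and the mitosis median 654, 821 and 117 FPKM, and dap peaks at 1872 FPKM at 6–8 h.

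Of 138 other cell cycle genes listed for the pathway, 131 were found. Between 6–8 and 16–18 h, 114 of 126 tested were at least 2-fold lower and 4 higher, with a median log2 ratio of -2.66. Among them, dgt3, of the augmin complex that nucleates spindle microtubules, was at 162 FPKM at 6–8 h and 2.105 at 16–18 h. The chromokinesin gene Klp3A was at 336 and 7.68 FPKM. The 4 higher ones, cal1, Mcm10, dgt4 and cmet, were listed at 0 at 6–8 h, so that no fold is given; dgt4 and cmet are named after their values were seen. Between 2–4 and 6–8 h, 28 of 122 (23%) were higher and 16 (13.1%) lower, both below the 25.9% and 18.9% of all genes. The lower ones included mtrm and gnu, which act in the oocyte and the first divisions: mtrm was at 146 FPKM at 2–4 h and 9.09 at 6–8 h, and gnu at 256 and 30.2. The higher ones included the cohesin genes SMC1, at 89.6 and 495 FPKM, and SA, at 46.1 and 299 FPKM.

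The 3 imaginal discs carried the members at nearly the same level. In haltere against wing disc, 0 of 41 members were at least 2-fold higher or lower, where 15.5% of all genes were higher and 4.29% lower. In leg against wing disc the counts were again 0 and 0, against 10.7% and 3.55%. In leg against haltere disc they were 0 and 0, against 3.24% and 12.6%. These comparisons share columns with each other.

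Within that narrow range the wing disc was highest for 31 of the 41 members (75.6%; 34% of all genes) and the haltere disc lowest for 29 (70.7%; 40% of all genes). The log2 ratio of haltere to wing disc was below 0 for 35 members (85.4%; 47.2% of all genes), with a median of -0.33, while genes at 5 FPKM or more in both discs had a median of -0.01. The leg to wing ratio was below 0 for 34 members (82.9%; 42.6% of all genes), with a median of -0.18, and for all 13 replication genes. With no spread between replicates known, differences of this size cannot be set against error. The haltere disc was also the column with the most muscle, fat body and salivary gland RNA, and at least 2-fold more than the wing disc in 11 of 13 muscle markers and in 7 of 7 fat body markers; the part of those tissues in the lower share of the members was not tested.

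Among replication genes in discs, mus209 was far above the rest, with 2148 FPKM in leg, 2410.1 in haltere and 2273 in wing discs. Mcm2 was listed at 328 FPKM in leg, 303 in haltere and 393 in wing discs. RnrL, the large subunit of ribonucleotide reductase, was listed at 576 FPKM in leg, 578 in haltere and 687 in wing discs. The wing disc led for Mcm2 and RnrL but not for mus209, where the haltere disc did. Lowest of the class was Orc1, with 54.6 FPKM in leg, 43.1 in haltere and 62.7 in wing discs. The helicase loader dup was listed at 140.1 FPKM in leg, 123 in haltere and 176 in wing discs. The haltere to wing log2 ratios of the class ran from -0.53 in Orc1 to 0.14 in Orc5, and the 5 MCM genes lay between -0.47 and -0.28.

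The largest difference between discs was in CycE, with 79.9 FPKM in leg, 50.9 in haltere and 94.3 in wing discs, a log2 ratio of haltere to wing of -0.88 and of leg to haltere of 0.64. The next were mitotic. Bub1 was listed at 54.4 FPKM in leg, 39.5 in haltere and 66.98 in wing discs, CycB3 at 162 FPKM in leg, 109.5 in haltere and 176 in wing discs and CycA at 511 FPKM in leg, 352 in haltere and 562 in wing discs. In each of these 4 genes the order was wing, leg, haltere. At the other end was ial, with 581 FPKM in leg, 688 in haltere and 567 in wing discs, the highest haltere to wing ratio at 0.28. For cdc2c both other discs were also above the wing, with 426 FPKM in leg, 426 in haltere and 374 in wing discs. For Dp the leg was lowest, with 404 FPKM in leg, 476 in haltere and 569 in wing discs and a leg to wing log2 ratio of -0.49. Thus the order of the discs was not one order for all members.

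Levels differed far more between members than between discs. Bub3, a checkpoint gene, was the highest mitotic member, with 1005 FPKM in leg, 940.1 in haltere and 989 in wing discs. The meiotic phosphatase gene twe was the lowest member in each disc, with 16.6 FPKM in leg, 14.4 in haltere and 18.2 in wing discs. Its somatic relative stg was listed at 256 FPKM in leg, 241 in haltere and 285 in wing discs. The inhibitors lay between these ends and close to one another. E2f2 was nearly level across discs, with 279 FPKM in leg, 265 in haltere and 267 in wing discs. Rbf was listed at 222 FPKM in leg, 182 in haltere and 261 in wing discs, and dap at 164 FPKM in leg, 143 in haltere and 185 in wing discs. Their haltere to wing log2 ratios were -0.01, -0.52 and -0.37. The G1 kinase gene Cdk4 was as level as E2f2, with 401 FPKM in leg, 402 in haltere and 426 in wing discs.

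The other pathway genes were as level: 3 of 121 were at least 2-fold higher and 1 lower in haltere against wing disc, with a median log2 ratio of -0.15. The 3 higher ones were tacc, Grip71 and mei-S332, each listed at 0 in the wing disc, and the lower one was Nnf1b, a kinetochore gene listed at 0 in the haltere disc and named after its values were seen. Near the 2-fold line from below was dm, the fly Myc gene that drives growth, with 36.8 FPKM in leg, 35.8 in haltere and 71.3 in wing discs.

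**Figure D3:**
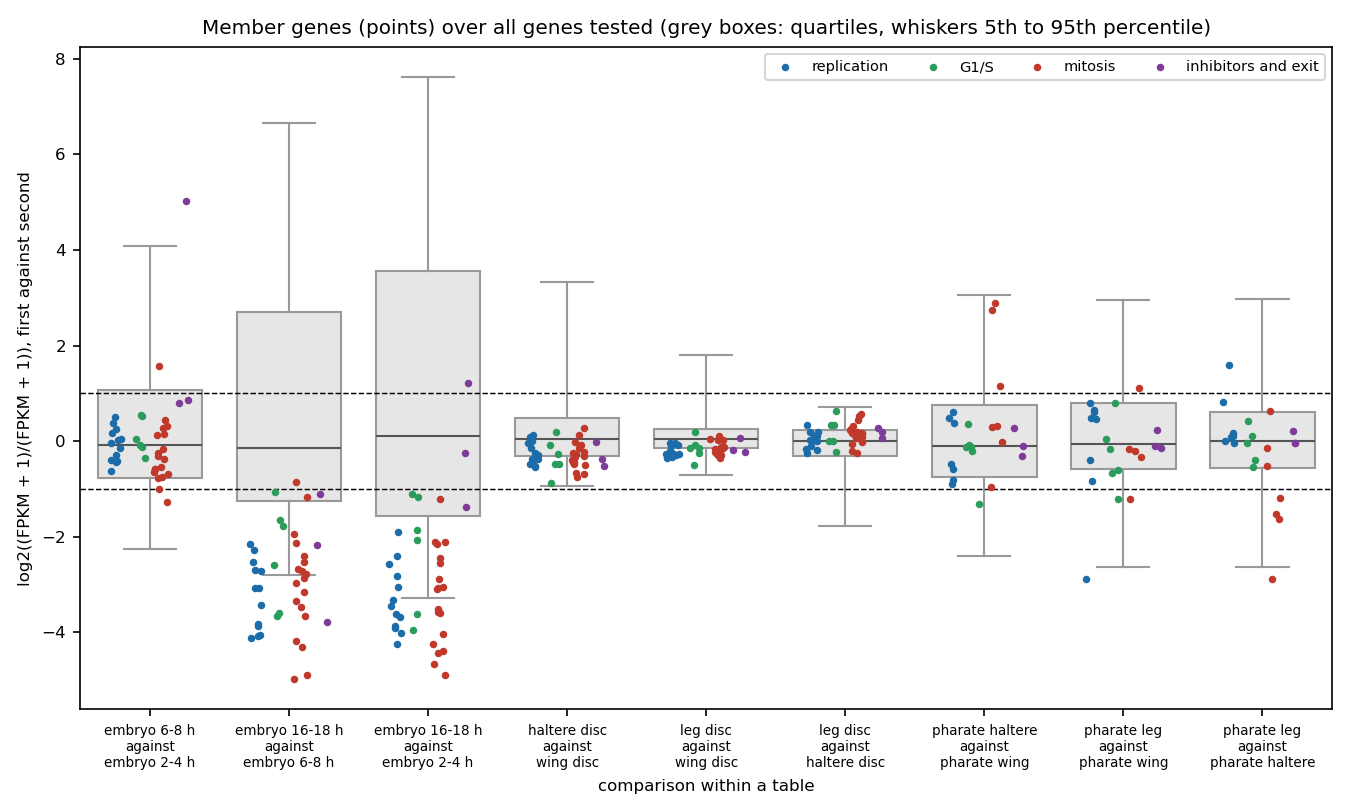
log2((FPKM + 1)/(FPKM + 1)) of the first tissue against the second in the 9 comparisons within a table; points are members coloured by class, grey boxes the quartiles of all genes tested with whiskers from their 5th to 95th percentile, and dashed lines 2-fold. Members lie between the dashed lines in all 3 disc comparisons, and 40 of 41 lie below the lower line in 16–18 h against 6–8 h embryos.

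Proportions within families differed between embryos and discs. These are ratios of FPKM, a level per transcript length, within a column, so that a common scaling of a column leaves them as they are; the pairs were chosen with their values known. The highest of 5 MCM subunits, Mcm7, exceeded the lowest by 6.21, 3.68 and 7.47-fold at 2–4, 6–8 and 16–18 h, and by 1.68, 1.77 and 1.66-fold in leg, haltere and wing discs. CycB exceeded CycB3 by 1.65, 1.697 and 2.35-fold in embryos and by 4.24, 5.36 and 4.63-fold in discs. The ratio of stg to twe was 15.4, 16.8 and 15.6 in discs, against 0.604, 4.34 and 1.14 in embryos.

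The clamp gene mus209 stood below CycB in embryos and above it in discs, with a ratio of 0.51, 0.59 and 0.29 at the 3 embryo stages and of 3.12, 4.11 and 2.795 in leg, haltere and wing discs. RnrS exceeded RnrL by 3.29, 3.07 and 2.08-fold in embryos and by 1.34, 1.23 and 1.15-fold in discs. The ratio of dup to its inhibitor geminin was 0.44, 0.43 and 0.66 in embryos and 0.14, 0.14 and 0.197 in discs. In these ratios twe, dup, Mcm7 (the highest MCM gene) and Mcm3 (the lowest at 2–4 and 16–18 h) overlap another gene, and the part of reads from the neighbour was not tested.

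**Figure D4:**
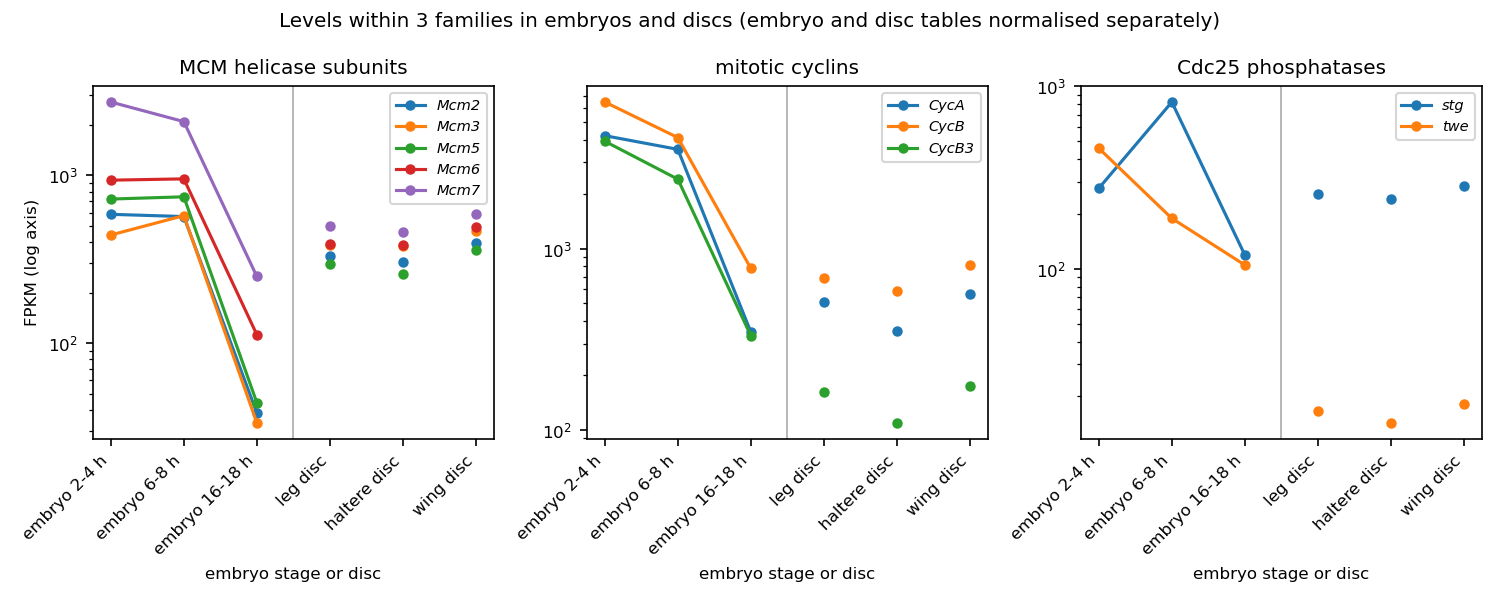
FPKM on a log axis of 5 MCM subunits (left), 3 mitotic cyclins (middle) and the Cdc25 genes (right) at 3 embryo stages, joined by lines, and in 3 discs, as single points; embryo and disc tables were scaled separately, so only spacing within a column is comparable across the grey line. The MCM points are spread 6.21-fold at 2–4 h and 1.66-fold in the wing disc, and stg and twe are 1.14-fold apart at 16–18 h and 15.6-fold apart in the wing disc.

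In pharate appendages, most of the replication and mitosis members were near or at 0. To set the pharate columns beside the discs without relying on scale, each gene was ranked as a percentile among the genes above 0 in its own column. The members' median percentile was 77.7, 73.9 and 81.8 in leg, haltere and wing discs. In pharate leg, haltere and wing it was 7.25, 9.65 and 7.895 with the 6, 2 and 8 members listed at 0 placed at the bottom, and 9.35, 10.9 and 12.4 without them. Of the members at percentile 50 or more in the wing disc, 25 of 35 (71.4%) were below percentile 25 or at 0 in the pharate wing, and 12.7% of all genes were. For the haltere the count was 25 of 35 (71.4%), against 12.1%. For the leg it was 24 of 34 (70.6%), against 14.3%. By class in the wing, this held for 11 of 11 replication genes, 13 of 16 mitosis genes, 1 of 5 G1/S genes and 0 of 3 inhibitors. Among the other pathway genes the shares for leg, haltere and wing were smaller, at 47.4%, 45.6% and 43.6%. Some of those genes ranked above their disc: Psf3, of the GINS complex that works with the MCM helicase, was at percentiles 66.4, 64.9 and 59.9 in leg, haltere and wing discs and 71.7, 78.02 and 78.97 in the pharate appendages, and Sld5, of the same complex, at 80.2, 81.98 and 78.5 and 87.1, 89.8 and 86.7. Both are named after their values were seen. Psf1 and Psf2, also of this complex, ranked below their discs in each appendage. Psf1 was at percentiles 81.8, 82.2 and 81.3 in leg, haltere and wing discs, and 6.35 and 11.2 in pharate leg and haltere. It was listed at 0 in the pharate wing. Psf2 was at 60.3, 57.4 and 54.998 in the discs and 15.7, 50.02 and 27.3 in the pharate appendages. Summed neuron markers were 44.7, 45.8 and 43.9 FPKM in leg, haltere and wing discs and 762, 876 and 630.5 FPKM in the pharate appendages, in tables scaled separately; their part in the lower ranks of the members was not tested.

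The FPKM values that the percentiles rank are given next, by role. Among replication genes, mus209 was listed at 17.2 FPKM in pharate leg, 17.04 in haltere and 10.8 in wing. Mcm5, a helicase subunit, was listed at 3.93 FPKM in pharate leg, 2.37 in haltere and 0 in wing. In mitosis, pav was listed at 0 in all 3 appendages. Both polo and ial were listed at 0 in pharate leg and wing, and in the haltere at 1.25 and 2.77 FPKM. CycB, the highest member of the early embryo, was listed at 5.57 FPKM in pharate leg, 6.19 in haltere and 6.296 in wing. The motor gene Klp61F, the securin gene pim and the separase complex gene thr were likewise at no more than 0.35, 6.399 and 1.11 FPKM in any appendage. In all, 6, 2 and 8 members were at 0 in pharate leg, haltere and wing, and 20, 21 and 21 were at 5 FPKM or more.

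G1/S genes and inhibitors were different. Of these, Cdk4, Dp, CycE, cdc2c and E2f2 overlap another gene, and the part of reads from the neighbour was not tested. CycD, dap and Rbf overlap none. Cdk4 was the highest member in every pharate column, with 168 FPKM in pharate leg, 222 in haltere and 254 in wing and percentiles of 66.4, 73.8 and 73.9. Dp was listed at 156 FPKM in pharate leg, 159 in haltere and 175 in wing. CycD was listed at 41.9 FPKM in pharate leg, 61.3 in haltere and 66.8 in wing. The highest of the 13 replication members reached 33.2 FPKM in the leg, below each of these. Among replication genes outside the list, some were higher, as Sld5 was with 574 FPKM in pharate leg, 664 in haltere and 651 in wing. E2f was listed at 94.3 FPKM in pharate leg, 69.8 in haltere and 53.8 in wing. The S phase cyclin gene CycE was low, with 4.96 FPKM in pharate leg, 4.54 in haltere and 12.8 in wing, and its kinase cdc2c was listed at 21.4 FPKM in pharate leg, 19.6 in haltere and 20.7 in wing. The class thus parted into genes of the cyclin D kinase and E2F on the high side and of the cyclin E kinase on the low side. Of the inhibitors, E2f2 was listed at 102 FPKM in pharate leg, 105 in haltere and 86.6 in wing. The Dacapo gene dap was listed at 67.6 FPKM in pharate leg, 57.9 in haltere and 72.03 in wing. For Rbf the levels were 55.9 FPKM in pharate leg, 57.5 in haltere and 61.7 in wing, and the ranges of the 3 inhibitors over the appendages were narrow. The fzr synonym rap had percentiles of 61.1, 66.2 and 65.2 in pharate leg, haltere and wing, above its 50.1, 45.9 and 48.6 in the discs, with 134 FPKM in pharate leg, 158 in haltere and 167 in wing.

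Among mitosis genes, the checkpoint genes Bub3 and Bub1 stayed well above 0. Bub3 was listed at 87.5 FPKM in pharate leg, 126 in haltere and 101 in wing. It overlaps the gene ppk19, and the part of reads from that neighbour was not tested, while Bub1 overlaps no other gene. Bub1 was listed at 61.2 FPKM in pharate leg, 39.2 in haltere and 77.2 in wing, while BubR1, a kinase-related member of the checkpoint, was listed at 3.01 FPKM in pharate leg, 1.32 in haltere and 4.29 in wing. Bub1 percentiles were 42.1, 32.9 and 47.4 in pharate leg, haltere and wing and 35.9, 29.6 and 38.3 in the discs. No other member ranked above its disc in all 3 appendages. For stg, the pharate haltere reached percentile 72.3, beside 72.1 in the haltere disc.

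**Figure D5:**
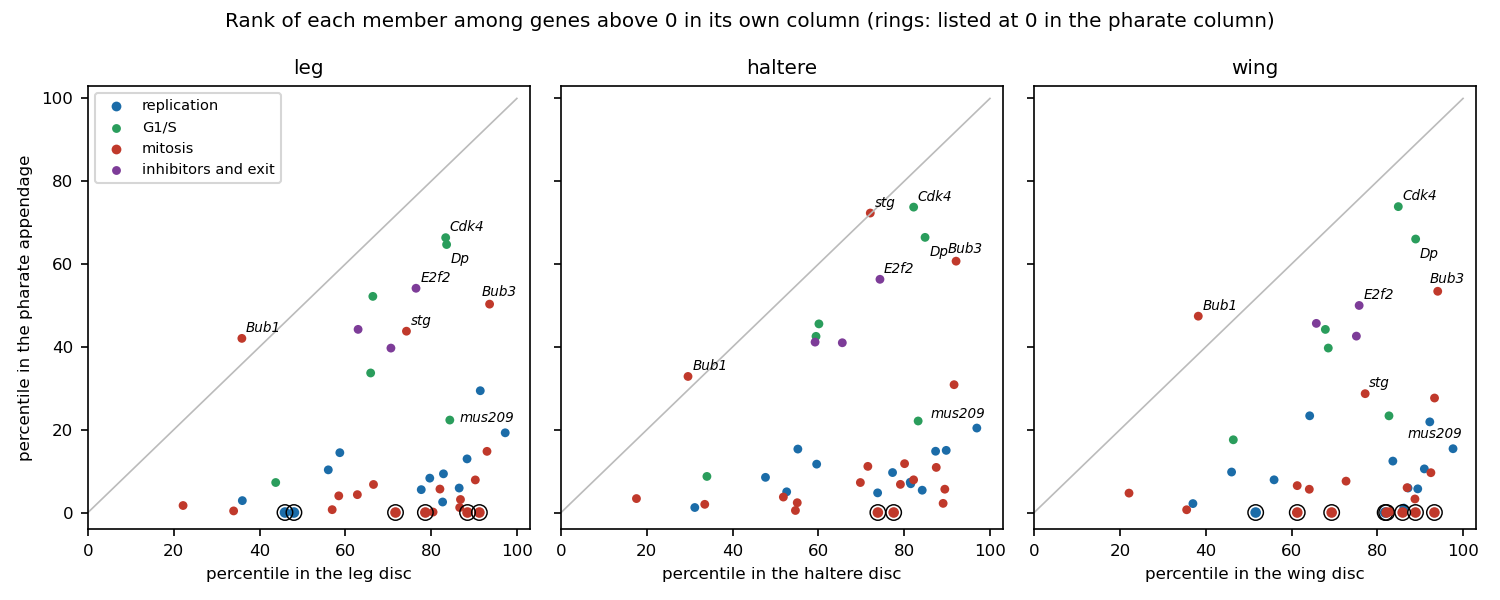
Percentile of each member among genes above 0 in the disc (x axis) and in the pharate appendage (y axis), for leg, haltere and wing; points are coloured by class, rings mark members listed at 0 in the pharate column, and the grey line is equal rank. Replication and mitosis genes lie along the bottom, with Cdk4 at 66.4, 73.8 and 73.9 and Bub1 above the line in all 3 panels.

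Between pharate appendages few members could be compared, as 23, 22 and 22 of 41 passed the 5 FPKM filter in the 3 comparisons. In haltere against wing, 3 were at least 2-fold higher and 1 lower, against 20.3% and 18.8% of all genes. In leg against wing, 1 was higher and 3 were lower, against 21.7% and 14.7%. In leg against haltere, 1 was higher and 4 were lower, against 17.1% and 14.3%. As shares of the members tested these are 13% and 4.35%, 4.55% and 13.6%, and 4.55% and 18.2%, above the share of all genes only in the last. A member near 5 FPKM passes the filter only through the tissue where it is higher, so the counts are a description. All genes at 5 FPKM or more in both had a median log2 ratio of -0.12 in haltere against wing, where the counts are the same relative to it.

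The gene that stood out was stg, with 66.3 FPKM in pharate leg, 207 in haltere and 30.2 in wing, so that the haltere was 6.67-fold above the wing and the leg 2.16-fold above it. Next were low genes: cdc2, the mitotic kinase, was listed at 11.7 FPKM in pharate leg, 35.2 in haltere and 28.3 in wing. CycA was listed at 2.52 FPKM in pharate leg, 7.06 in haltere and 2.599 in wing. In both, the haltere was above the leg. The securin gene pim was listed at 0 in leg and wing and at 6.399 FPKM in the haltere, and Orc6 at 0 in the leg and 6.42 FPKM in the wing; both enter the counts, and no fold is given. CycE was higher in the wing than in leg or haltere, by 2.31-fold and 2.49-fold. RnrS was the member higher in the leg than in the haltere, with 33.2 FPKM in pharate leg, 10.3 in haltere and 18.7 in wing. Muscle markers summed to 458561, 27439 and 86084 FPKM in pharate leg, haltere and wing and haemocyte markers to 642, 919.96 and 227 FPKM. In leg against haltere, 0 of 6 haemocyte markers were at least 2-fold higher and 1 was lower. That marker, Pxn, was at 263.5 FPKM in the haltere and listed at 0 in the leg, which can be a failed estimate. The part of muscle and haemocyte RNA in these differences was not tested.

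Some other pathway genes reached high levels at this stage. Klp10A, a microtubule-depolymerising kinesin, was listed at 276 FPKM in pharate leg, 203 in haltere and 1752 in wing. The centrosomal scaffold gene cnn was at 227 FPKM in the haltere and 1529.5 in the wing. Cks85A, a Cdk-binding subunit, was at 909.6 FPKM in leg, 149.6 in haltere and 135 in wing. Of the pathway genes tested, 9 of 97 (9.28%) were higher and 17 (17.5%) lower in haltere against wing, both below the 20.3% and 18.8% of all genes.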

How the data were processed

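RNA levels were taken from 3 tables of FPKM that the authors deposited, with 1 value per gene and tissue and 2 replicates named in each title, per the file headers and the labels. CASAVA 1.7, Bowtie 0.12.3, TopHat 1.1.4, Cuffdiff, MACS2 and the build dm3 are named, without roles, per the submitters' processing notes; the scaling of the columns, the annotation and the use of strand are not given in the sources used here. Differences in scaling would move all ratios of a comparison together, so the median ratio of all genes is given. Depth and counting error are unknown. Columns were matched to samples by title, with 0 per-sample columns left unmatched. The 248 entries whose name occurred more than once were left out.

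Ratios used a pseudocount of 1 FPKM, a filter of 5 FPKM in either tissue and a 2-fold line, which understates folds of low genes. With 1 value per tissue no test was made. The members, the lists of other pathway and marker genes and the comparisons were chosen with earlier results of these data known. Genes were named if they were members at least 2-fold apart, near the class median or furthest apart; other pathway genes were up to 3 at each end of a comparison with 10 FPKM or more in either tissue. Some members were named for their role, after their values were seen. Alternatives changed the pseudocount, the filter, the 2-fold line and the centring. Python 3.11.15, pandas 2.3.3, numpy 2.4.6 and matplotlib 3.10.9 were used. Chromatin peaks and promoter sequences were not used here, so the planned looks at peaks and motifs near the members were not run.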

Additional observations from a re-analysis of the deposited data

How the results depend on the processing

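Of 126 recounts of members at least 2-fold apart, 107 stayed within 1.5 times the reported count and 19 moved. Centring on the median ratio of all genes, and adding rap (chosen after seeing the data), moved none of the 18 counts. Among embryo comparisons, those with 16–18 h moved under none of the 7 settings. For 6–8 against 2–4 h, a 1.5-fold line gave 4 members higher and 7 lower, and a pseudocount of 0.1 FPKM gave 2 lower. In discs, a 1.5-fold line gave 4 lower in haltere against wing and 1 higher in leg against haltere. In pharate haltere against wing, no filter gave 8 higher and 2 lower, a filter of 20 FPKM gave 1 and 0, a pseudocount of 5 FPKM gave 0 lower, and a 1.5-fold line gave 4 lower. In pharate leg against wing, no filter gave 4 higher, a 1.5-fold line gave 5 higher and 6 lower, and a pseudocount of 5 FPKM or a filter of 20 FPKM gave 1 lower. In pharate leg against haltere, a 1.5-fold line gave 3 higher, no filter gave 9 lower and a filter of 20 FPKM gave 2 lower. The filters change how many members are tested, from 13 or 14 at 20 FPKM to between 36 and 40 with none; for the other settings the cause was not tested. Of 698 recomputed medians and single-gene ratios, 328 stayed the same to 2 decimals and 370 moved by more. A filter cannot change the ratio of a single gene, and a pseudocount cannot change its sign. Of the unchanged values, 122 came from the filter of 20 FPKM and 133 from no filter. Centring subtracts the median ratio of all genes, which was furthest from 0 at -0.76, in 16–18 h against 2–4 h. Single genes and medians were checked for reversal only from a 2-fold ratio. Centring therefore could not reverse any of them, and the 0 reversals say nothing about robustness. Centring moved 134 of 141 and a pseudocount of 5 FPKM moved 125 of 141.

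No paired analysis was possible because 1 value per tissue was deposited for pooled replicates, and leaving out a replicate was not possible for the same reason. Pharate values of a few FPKM and listed zeros carry no known error.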
